A study of Sus scrofa with 18 samples.

Results

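Transplanted pig kidneys treated with carbon monoxide (CO) were compared at 24 h and at 4 h, with 4 grafts at each time, so the comparison used 8 of the 18 arrays of the series. The CO 24 h grafts came from donors 5 to 8 and the CO 4 h grafts from donors 1 to 4, chosen by the source and title of each array. Each of the 8 donors also gave 1 transplanted kidney without CO (4 untreated 24 h and 4 untreated 4 h grafts), and 2 naive kidneys had not been transplanted. RNA of each kidney was hybridised to 1 Affymetrix pig array. The treatment field of every CO array reads air, while source and title name CO. These were followed here. The labels do not say whether donor, graft or recipient was given CO, what the times count from, or the breed, age or sex of the animals.

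Ischemia reperfusion injury is the damage done when a tissue is cut off from blood and then receives it again, as every graft does. In the kidney it strikes the proximal tubule first, which reabsorbs most of the filtrate and burns fatty acids to do so. Stressed tubule cells switch on chaperones and immediate early transcription factors within hours, and proliferation, leukocyte entry and repair follow later. CO is a product of heme breakdown by heme oxygenase and has been used at low doses to protect grafts.

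The comparison rests on separate animals, and the date in the array file names differs between the CO groups. CO 4 h arrays of donors 1, 3 and 4 carry one date and that of donor 2 another. CO 24 h arrays of donors 5, 7 and 8 share a different date, and that of donor 6 has its own. No date holds both CO groups, so no value within a date can be had. Numbers in the file names of the naive arrays recur in those of donor 4, so the naive kidneys may share animals with donor 4, and the tests ignore this. A fit with date as a fixed block is linked only through the untreated array of donor 5 at 24 h, which shares a date with 4 h arrays. Under it 0 probe sets passed, while 4184 of the 4226 called here kept their sign. Spread within groups was alike, with a median SD per probe set of 0.219 at 24 h and 0.25 at 4 h on the log2 scale. The hybridisation control BioB read 4.66 to 5.71 on the CO 24 h arrays and 6.14 to 6.71 on the CO 4 h arrays, which did not overlap. The 3′ minus 5′ difference of GAPDH, a sign of RNA integrity, was 1.60, 1.14, 2.17 and 2.28 at 24 h (donors 5 to 8), against 1.04 to 1.54 at 4 h. That of actin was 2.51, 1.22, 2.18 and 2.79 at 24 h, against 1.32 to 1.88 at 4 h. On both measures the 24 h arrays of donors 5, 7 and 8 lay above all 4 h arrays and that of donor 6 did not, and the same held for elongation factor 1 alpha. The part of these differences in the results below was not tested. Outside the CO groups, the untreated 4 h array of donor 1 stood apart. Its mean correlation was 0.982 with the naive arrays and 0.956 with its own group, so values for untreated grafts are also given without it. Mean log2 levels of proximal tubule genes were 5.77 to 7.11 on the CO 24 h arrays and 7.18 to 8.34 on the CO 4 h arrays, against 8.451 and 8.555 in naive kidneys. Those of 4 glomerular markers were 4.63 to 5.35 and 3.995 to 5.35 on the CO arrays. Of 29 proximal tubule genes, 0 were below background on all 8 CO arrays. The same held for 0 of 22 lymphocyte markers, so that count does not tell tissues apart.

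Of 23999 probe sets, 4226 differed between CO 24 h and CO 4 h grafts (17.6%) at an adjusted p under 0.05. They were called with limma and Benjamini-Hochberg adjustment over all probe sets. Of these, 2440 were higher (10.2%) and 1786 lower (7.44%) at 24 h. The change was at least 1 on the log2 scale for 937 of the higher and 807 of the lower probe sets, and at least 2 for 107 and 127. The median size of a called change was 0.90 with a median standard error of 0.21. The 4 arrays of one time lay wholly apart from the 4 of the other for 2025 of the higher and 1392 of the lower calls. Among all probe sets, called or not, 20.9% were separated in that way. The first principal component of the 8 CO arrays held 51.9% of their variance and separated the times, with 22.6 to 53.3 at 24 h and -62.5 to -15.1 at 4 h. The arrays nearest to the other group on it were donor 8 at 24 h and donor 2 at 4 h. Without the CO 4 h array of donor 1, calls numbered 2720, of which 1598 were higher and 1122 lower. Without the CO 24 h array of donor 7 there were 2842 calls, and 1098 of them were lower. Centring each array on its median gave 2075 higher and 2179 lower calls.

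**Figure D1:**
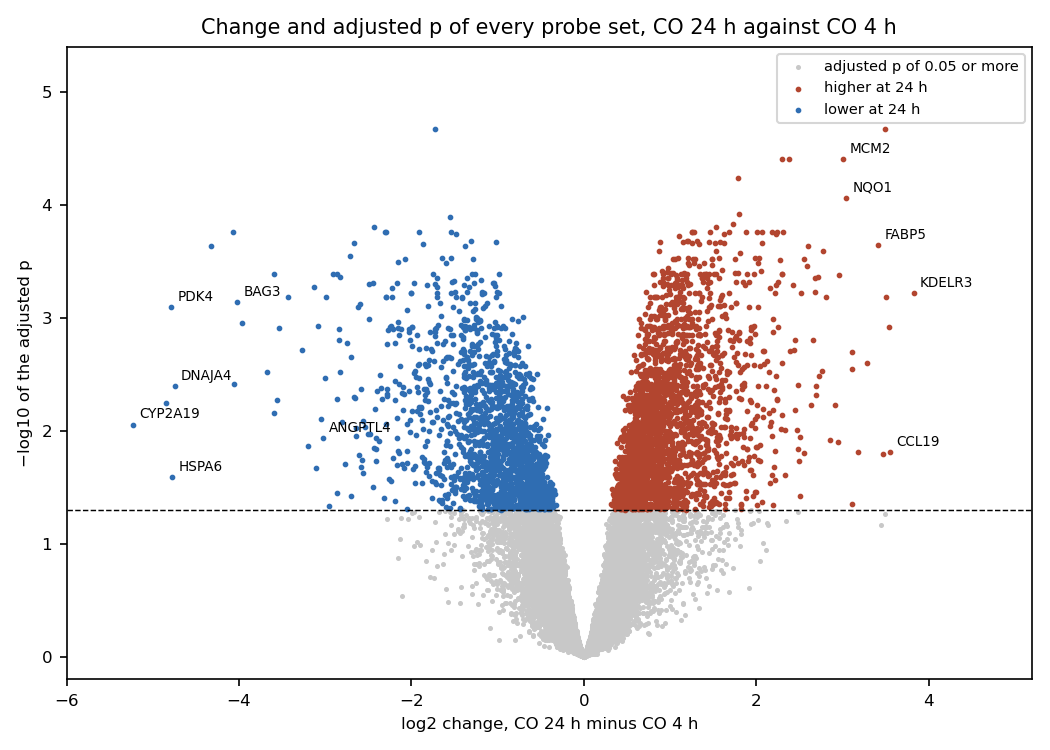
Change of each probe set (log2, CO 24 h minus CO 4 h, n = 4 each) against the −log10 of its adjusted p from limma. Red points are the 2440 probe sets higher at 24 h, blue points the 1786 that were lower, and the dashed line marks an adjusted p of 0.05. The heat shock genes HSPA6, DNAJA4 and BAG3 lie far left and MCM2 and NQO1 far right.

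Set against the naive kidneys, some calls returned toward their level and others moved away from it. Of the 1786 lower probe sets, 424 were at least 1 above the naive mean at 4 h and within 1 of it at 24 h. Another 317 were within 1 of it at 4 h and at least 1 below it at 24 h. Of the 2440 higher probe sets, 457 were within 1 of the naive mean at 4 h and at least 1 above it at 24 h, and 307 had been at least 1 below it at 4 h and were within 1 at 24 h. These are counts of group means against 2 naive arrays, with no test.

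At gene level each gene was represented by its brightest probe set. By that measure 1788 of 6765 genes passed (26.4%), 1212 higher (17.9%) and 576 lower (8.51%), with a median change of 0.07 over all genes. The lists below are read against these shares, and their counts are descriptions with no test of the list. They were chosen with earlier results of these data known, so a list standing above these shares is not independent evidence. Of 764 list genes, 244 were called, and 135 of these were also called with each of the 8 CO arrays left out in turn. Another 101 genes were called only when some CO array was left out. Without CO donors 2 and 6 together, 24 of the 130 named genes that were called lost the call, among them CCL19, CASP1 and SCARB1, which kept it with each single CO array left out. Where a fit with date as a fixed block turned the sign of a list's median or moved it by over 1.5 times, that median is given as the date-block median. In whole tissue, fewer cells of a type and less RNA per cell cannot be told apart.

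Heat shock genes made up 6 of the 14 genes with the largest fall: HSPA6, DNAJA4, BAG3, HSP70.2, DNAJB1 and HSPH1. Here and for the largest rises, each gene is given by its probe set of largest change. The other probe set of DNAJA4 changed by -0.06 and did not pass. CYP2A19, a cytochrome P450, had log2 intensities of 5.58, 2.72, 2.83 and 6.64 in the CO 24 h grafts (donors 5 to 8), against 9.01, 10, 9.43 and 10.3 in the CO 4 h grafts (donors 1 to 4). Its groups did not overlap, and donors 6 and 7 were lowest. The change was -5.23 ± 1.24 (SE), or 37.6-fold lower, with an adjusted p of 0.00882, and -1.19 with date as a fixed block. PDK4, the kinase that turns off pyruvate dehydrogenase in fasting, read 5.45, 4.26, 5.56 and 4.02 at 24 h, against 9.91, 9.28, 9.59 and 9.66 at 4 h, 27.6-fold lower at 24 h (adjusted p = 0.000801). The groups did not overlap, with an SD of 0.80 at 24 h and 0.26 at 4 h, and the naive kidneys read 9.55 and 6.59. The coagulation factor gene F9 fell 12.7-fold and TF, which encodes the iron carrier transferrin, 9.20-fold (log2 change -3.20, or -5.32 with the fixed date block). The other probe set of TF changed by -1.43 and did not pass. AQP1, the water channel of the proximal tubule, fell 7.95-fold, and ANGPTL4, an inhibitor of lipoprotein lipase, 8.17-fold. By its brightest probe set AQP1 fell 2.83-fold. MLF1 read 1.94 to 3.10 at 24 h, against 5.38 to 6.40 at 4 h, and the naive kidneys at 2.53 and 2.81 lay with the 24 h grafts. NDUFS3, a subunit of respiratory complex I, is on the list through a dim probe set with a change of -3.13. Its brightest probe set changed by 1.25 the other way, and it is 1 of 8 genes whose probe sets were called in both directions.

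KDELR3, a receptor that returns chaperones to the endoplasmic reticulum, led the 14 genes with the largest rise and read 6.85, 6.58, 6.75 and 6.12 in the CO 24 h grafts, against 2.21, 3.43, 2.58 and 2.80 in the CO 4 h grafts. That was a 14.2-fold rise (log2 change 3.83 ± 0.58, adjusted p = 0.000600), and the naive kidneys at 4.21 and 3.58 lay between. KDELR3 had 2 of 3 probe sets called higher, and its lowest change was 0.06. FABP5, a fatty acid carrier, read 8.78, 8.00, 8.55 and 8.69 at 24 h, against 4.61, 5.64, 5.79 and 4.33 at 4 h, a 10.7-fold rise. RBP4, the retinol carrier, rose 8.65-fold by 1 of its 2 probe sets. That probe set stood at 7.00 to 9.69 at 24 h, against 4.86 to 6.64 at 4 h and 4.32 and 2.89 in naive kidneys. The other changed by -0.32 and did not pass. The replication genes PCLAF, MCM2 and RRM2 rose 8.68-, 8.04- and 6.65-fold, and CENPH, a kinetochore protein, 6.44-fold. The other probe set of PCLAF changed by 0.07. MCM2 had 2 of 3 probe sets called higher, with a lowest change of 0.03. ENOSF1 rose 6.84-fold. The immune genes CCL19, UBD, FAM26F, CCL8 and SLA-DMA rose 11.7-, 11.7-, 11.1-, 9.76- and 7.52-fold. The CO 24 h array of donor 8 was the lowest of the 4 for all 5. With the fixed date block the log2 changes of CCL19 and UBD were 2.12 and 1.31, against 3.55 and 3.54 without it. The other probe set of FAM26F changed by 1.13 and did not pass. FAM26F lost its call without CO 24 h donor 6 or donor 7 (adjusted p at most 0.0538), and 25 of the 28 largest changes kept theirs with each CO array left out in turn. The other exceptions, HSPA6 and HSPH1, are described with the heat shock genes.

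**Figure D2:**
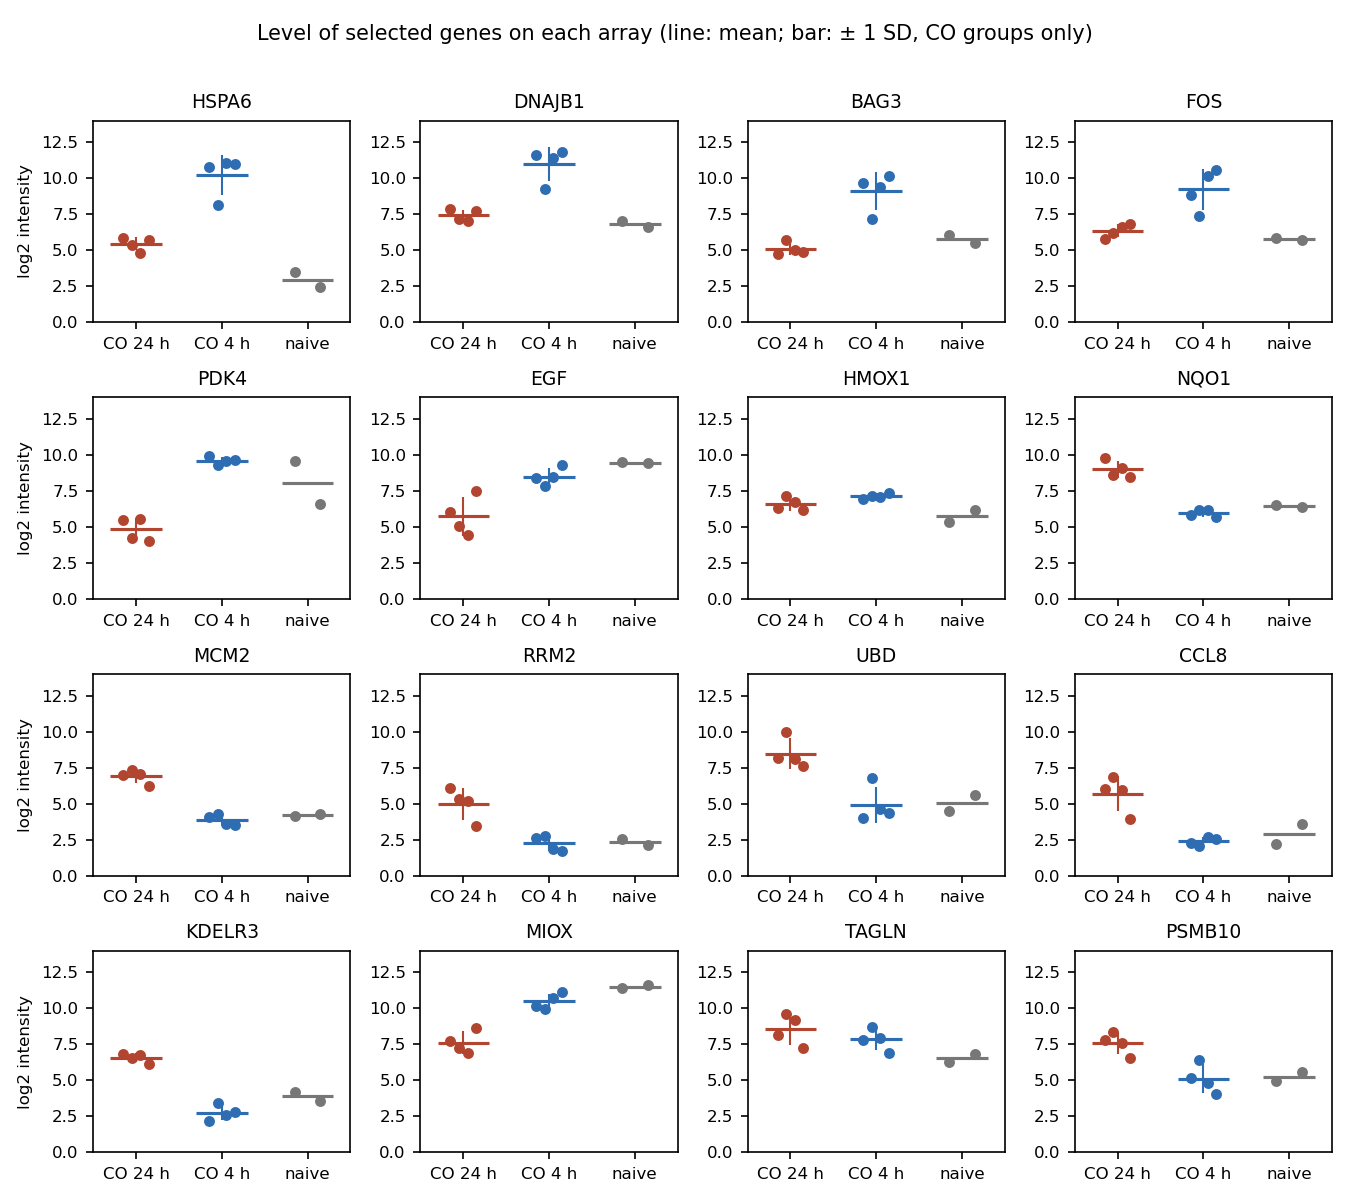
Log2 intensity of 16 genes on each CO 24 h array (red, n = 4), CO 4 h array (blue, n = 4) and naive array (grey, n = 2), with the mean as a line and ± 1 SD as a bar in the CO groups. BAG3 and PDK4 are shown by their probe set with the largest change. HSPA6, DNAJB1 and BAG3 are high at 4 h with donor 2 lowest, NQO1, MCM2 and KDELR3 do not overlap between the times, and HMOX1 and TAGLN overlap.

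Most heat shock genes fell. They encode chaperones that bind misfolded proteins, and their co-factors. Of 29 measured, 18 were lower and 0 higher at 24 h, with a median change of -1.15, and all 29 had a negative change. HSPA6, an inducible HSP70, read 5.88, 5.36, 4.83 and 5.69 in the CO 24 h grafts, against 10.7, 8.12, 11.04 and 10.9 in the CO 4 h grafts and 3.47 and 2.45 in naive kidneys. The fall was 27.4-fold (-4.78 ± 1.39 on the log2 scale, adjusted p = 0.0257), with donor 2 lowest at 4 h. DNAJB1, an HSP40 that works with HSP70, read 7.83, 7.18, 7.05 and 7.69 at 24 h, against 11.6, 9.22, 11.4 and 11.8 at 4 h, 11.8-fold lower (adjusted p = 0.00537). BAG3, an HSP70 co-factor of selective autophagy, stood at 7.68 to 7.87 at 24 h, against 9.81 to 11.8 at 4 h and 7.79 to 8.19 in naive kidneys. Small heat shock genes fell too, among them CRYAB (-2.65), HSPB8 (-2.54) and HSPB1 (-1.85). The cytosolic HSP90 genes fell less (HSP90AA1 -1.13, HSP90AB1 -0.78), as did the mitochondrial chaperones HSPD1 (-1.30), HSPE1 (-0.97) and HSPA9 (-0.43). HSPA5 and HSP90B1, chaperones of the endoplasmic reticulum, changed by -0.52 and -0.32 and did not pass, nor did HSPA8 at -0.81. The mean level of the list relative to naive was 0.67 to 0.92 at 24 h, against 2.85, 1.63, 2.70 and 2.93 at 4 h, so the groups did not overlap and donor 2 was lowest. Without donor 2 at 4 h, 24 members were lower, while 10 were lower without CO 4 h donor 1 and 11 without CO 24 h donor 7. HSPA6 lost its call when any of CO 24 h donors 6 and 7 or CO 4 h donors 1, 3 and 4 was left out (adjusted p up to 0.0663). HSPH1 lost it without CO 24 h donor 7 or CO 4 h donors 1, 3 or 4 (up to 0.0630). HSPA9 lost its call without any 1 of the 8 CO arrays (up to 0.122), HSP90AB1 in 6 of those fits, HSP90AA1 in 3 and HSPB1 in 2 (up to 0.0994, 0.0625 and 0.0543). HSPA8 passed without CO 4 h donor 2.

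Immediate early genes, which encode transcription factors and feedback regulators induced within minutes of a stimulus, fell in part. Of 22 measured, 9 were lower and 0 higher, with a median of -1.06. FOS read 5.76, 6.22, 6.63 and 6.83 in the CO 24 h grafts, against 8.82, 7.37, 10.1 and 10.6 in the CO 4 h grafts and 5.83 and 5.70 in naive kidneys, 7.25-fold lower (adjusted p = 0.0353). The 24 h values lay near the naive ones, and donor 2 was again lowest at 4 h. JUN fell 3.18-fold, EGR1 2.72-fold and KLF4 2.68-fold. EGR1 had 1 of 3 probe sets called lower, with changes from -1.73 to -1.04. DUSP1, a phosphatase that ends MAP kinase signals, fell by 1.31 and ZFP36, which speeds decay of cytokine mRNA, by 1.34. ATF3 changed by -1.54, FOSL1 by -1.29 and MYC by -0.65 without passing. Without CO 4 h donor 1 or donor 3, 5 members were lower. FOS lost its call in 6 of the fits that left out 1 CO array (adjusted p up to 0.105), JUN in 4 (up to 0.0761) and ZFP36 in 6 (up to 0.0776). ATF3 passed without CO 4 h donor 2.

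Stress lists that respond to unfolded protein, amino acid shortage or p53 were mixed. Of 23 endoplasmic reticulum and amino acid stress genes, 6 were lower and 3 higher (median -0.32, date-block median -0.55). The falls included PCK2, a mitochondrial enzyme of gluconeogenesis (6.54-fold), PPP1R15A, which restarts translation after stress (3.98-fold), and the chaperone DNAJB9 (2.90-fold). The lipoprotein receptor VLDLR rose 3.05-fold by 1 of its 2 probe sets, and the other changed by 0.22. Of 18 p53 and apoptosis genes, 5 were lower and 3 higher (median -0.22). The share higher was 16.7%, near the 17.9% among all genes. GADD45B (4.44-fold), GADD45A (3.08-fold) and the cell cycle inhibitor CDKN1A (2.60-fold) fell. CDKN1A read 5.71, 6.89, 5.74 and 5.45 at 24 h, against 7.55, 7.02, 7.15 and 7.58 at 4 h, all above the naive values of 3.77 and 4.10. Its call was lost in 6 of the fits that left out 1 CO array (adjusted p up to 0.0991). CASP1, the inflammasome protease, rose 5.69-fold, with 3.95 in donor 8 and 6.11 to 7.28 in the other CO 24 h grafts, against 3.25 to 3.77 at 4 h, a call lost without CO donors 2 and 6. GADD45A lost its call without CO 4 h donor 1 or 4 or CO 24 h donor 7 (up to 0.0626). The 5 lower p53 genes became 2 without CO 4 h donor 1 or 4 or CO 24 h donor 7, and 3 without CO 4 h donor 3 or CO 24 h donor 5 or 8. The 3 higher stress genes became 1 without CO 4 h donor 4 or CO 24 h donor 6.

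Genes of heme breakdown and the antioxidant response did not move one way. HMOX1, the inducible heme oxygenase, read 6.30, 7.12, 6.70 and 6.14 in the CO 24 h grafts, against 6.97, 7.13, 7.06 and 7.34 in the CO 4 h grafts, with 5.32 and 6.21 in naive kidneys. The groups overlapped and the change of -0.56 ± 0.34 did not pass (adjusted p = 0.291). HMOX2, the constitutive enzyme, fell 1.64-fold (adjusted p = 0.0242), a call lost without CO 24 h donor 5 or 7 or CO 4 h donor 2 or 4 (up to 0.0768). BLVRA, which reduces the biliverdin that heme oxygenase makes, changed by 0.54 and did not pass (adjusted p = 0.227). NQO1, a quinone reductase and a usual target of the transcription factor NRF2, read 9.81, 8.57, 9.09 and 8.48 at 24 h, against 5.80, 6.15, 6.16 and 5.69 at 4 h and 6.53 and 6.35 in naive kidneys. All 4 CO 24 h grafts lay above all CO 4 h and naive arrays, an 8.23-fold rise (3.04 ± 0.31, adjusted p = 8.68e-05), and the untreated 24 h grafts read 8.71 to 9.72. Of 31 genes on the NRF2 and heme list, 7 were higher and 4 lower (median 0.08). The higher ones included GSTA4 (3.83-fold), a glutathione transferase, PGD (2.28-fold), TALDO1 and TKT of the pentose phosphate pathway, and the peroxiredoxin PRDX1. GSTA4 had another probe set, which changed by -0.16 and did not pass. Catalase (CAT) fell 2.38-fold, and GCLC, a subunit of the enzyme that starts glutathione synthesis, fell by 0.61, a call lost in 5 of the 8 fits that left out 1 CO array (up to 0.111). GCLM (-1.07) and TXNRD1 (-0.83), other usual NRF2 targets, did not pass. The 4 lower members became 2 without CO 4 h donor 4 or CO 24 h donor 7.

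Inflammatory mediators often followed in studies of CO were measured individually. CCL2, a monocyte chemokine, read 8.71, 10.04, 9.49 and 7.49 in the CO 24 h grafts, against 9.30, 7.23, 9.50 and 8.25 in the CO 4 h grafts and 4.15 and 5.18 in naive kidneys. The groups overlapped, and all 8 grafts lay above both naive kidneys. ICAM1, an adhesion molecule, changed by -0.01 ± 0.37 and CXCL8, a neutrophil chemokine, by -0.24 ± 0.63. IL6 changed by -0.16 ± 0.28, TNF by 0.56 ± 0.27 and IL1B by 1.01 ± 0.38. None of these 6 passed, with adjusted p of 0.0794 for IL1B and 0.159 to 0.993 for the others. IL1B and TNF passed without the CO 24 h array of donor 8. Of the nitric oxide synthases, NOS2 changed by -0.13 and the endothelial NOS3 by -1.06 (adjusted p = 0.052), which passed without CO 4 h donor 4, with median centring, quantile normalization or array weights, and without the dimmest probe sets. IL1B also passed with array weights. VEGFA changed by -0.28 by its brightest probe set, which did not pass. Of its 4 probe sets, 2 were called lower, and the changes ran from -1.555 to -0.05.

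Fasting- and steroid-responsive genes fell in part, as did fatty acid oxidation genes. Of 16 steroid and nutrient response genes, 9 were lower and 0 higher, with a median of -0.97. Their mean level relative to naive was -1.16 to -1.02 at 24 h, against -0.07 to 0.23 at 4 h. The 24 h grafts were close to each other and below all 4 h grafts. Besides PDK4 and ANGPTL4, the glucocorticoid-induced KLF9 fell 3.49-fold and CEBPD 2.17-fold, and SGK1 (-1.04), TSC22D3 (-0.67), FOXO3 (-0.89) and FOXO1 (-0.52) fell. For KLF9, the other probe set changed by -0.20 and did not pass. FKBP5, another glucocorticoid target, changed by -0.59 and did not pass. With 1 CO array left out, TSC22D3 lost its call in 6 of 8 fits, CEBPD in 4, SGK1 in 3 and FOXO1 in 1 (adjusted p up to 0.131, 0.0750, 0.0765 and 0.0556). Of 33 fatty acid oxidation and ketone genes, 10 were lower and 0 higher (median -0.46, date-block median -0.26). Among them were the thiolases ACAA1 (2.63-fold) and ACAA2 (2.14-fold), the ketone-using enzyme OXCT1 (2.45-fold), the dehydrogenases ACADM (-0.80) and ACADVL (-0.50), and the regulator PPARA (-0.46). The carnitine shuttle genes CPT1A (-0.22) and CPT2 (-0.04) did not pass. The 10 became 4 without CO 4 h donor 4 or CO 24 h donors 6 or 7 and 5 without CO 4 h donor 3. ACADM and PPARA lost their calls in 6 of the 8 fits, ACADVL in 5 and ACAA2 in 4 (adjusted p up to 0.109, 0.149, 0.136 and 0.106).

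The shares of higher genes on the glycolysis and respiration lists lay near the 17.9% among all genes. Of 26 hypoxia and glycolysis genes, 4 were higher (15.4%) and 0 lower (median 0.30, date-block median -0.0097). LDHA, which makes lactate, rose 2.48-fold, and GAPDH, GPI and PFKL 1.67-, 1.67- and 1.65-fold. GAPDH, with 2 of 5 probe sets called higher and a lowest change of 0.10, stood at 12.3 to 12.5 at 24 h, against 11.5 to 11.96 at 4 h. The 4 became 2 without CO 4 h donor 1 or 3, where LDHA and PFKL lost their calls (up to 0.0649 and 0.0530). Of 36 citric acid cycle and respiratory chain genes, 7 were higher (19.4%) and 2 lower (median 0.20, date-block median 0.46). Pyruvate carboxylase (PC), which feeds gluconeogenesis, fell 4.91-fold, with 5.90 to 7.63 at 24 h, against 8.51 to 9.16 at 4 h, and SUCLG2 fell 1.75-fold. NDUFS3 rose 2.38-fold and NDUFA1 1.54-fold by their brightest probe sets. By these, the means of NDUFS3 were 8.13 at 24 h, 6.88 at 4 h and 8.15 in naive kidneys, and those of NDUFA1 9.01, 8.39 and 9.07. NDUFA1 also had a probe set called lower (-1.53). The 7 became 3 without CO 4 h donor 1 or CO 24 h donor 5 and 4 without CO 4 h donor 3, and the 2 lower became 1 without CO 4 h donor 4, where SUCLG2 lost its call (up to 0.0614). NDUFA1 lost its call without CO 4 h donor 1 or CO 24 h donor 5 (up to 0.0625). Of 18 cholesterol and fatty acid synthesis genes, 5 were higher and 1 lower (median 0.40, date-block median 1.41). FDFT1 rose 2.34-fold, FDPS 2.32-fold and SCD 2.15-fold. Their 24 h means were 7.34, 6.79 and 6.42, against 6.11, 5.58 and 5.32 at 4 h and 7.26, 5.77 and 4.99 in naive kidneys. The 5 became 2 without CO 4 h donor 1 or CO 24 h donor 5 and 3 without CO 4 h donor 3, and SCD lost its call in 6 of the 8 fits (up to 0.0953). Of 8 circadian clock genes, 3 were lower and 0 higher (median -1.07): CRY2 (3.35-fold), RORA (2.26-fold) and PER1 (2.07-fold). PER1 had another probe set, which changed by -0.24 and did not pass. Without CO 4 h donor 2, 6 clock genes were lower. Time of day of sampling is not in the labels.

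**Figure D3:**
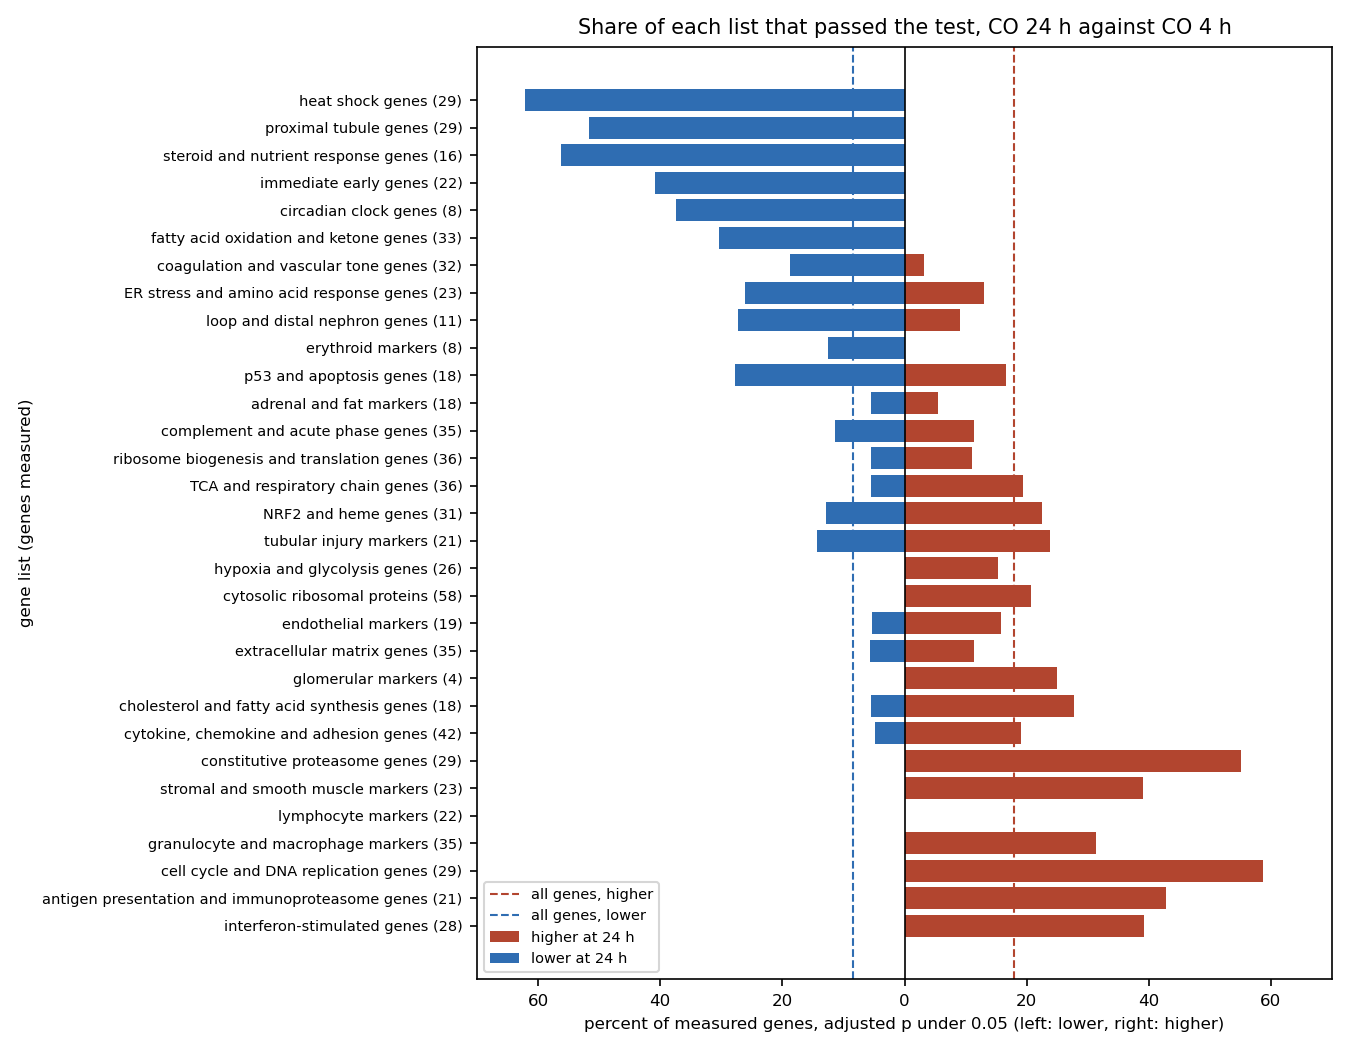
Percent of the measured genes of each list with an adjusted p under 0.05, to the right in red where higher and to the left in blue where lower in CO 24 h than in CO 4 h grafts (n = 4 each). Dashed lines give the shares among all 6765 genes, 17.9% higher and 8.51% lower. The lists were chosen with earlier results of these data known. Heat shock genes reach furthest left (18 of 29) and cell cycle genes furthest right (17 of 29).

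Proximal tubule genes were lower at 24 h. Of 29 measured, 15 were lower and 0 higher, with a median of -1.20. MIOX, which breaks down inositol in the proximal tubule, read 7.71, 7.25, 6.87 and 8.67 in the CO 24 h grafts, against 10.2, 9.96, 10.7 and 11.1 in the CO 4 h grafts and 11.4 and 11.6 in naive kidneys. The groups did not overlap, donor 8 was highest at 24 h, and the fall was 7.29-fold (-2.87 ± 0.40, adjusted p = 0.000405). DPYS, of pyrimidine breakdown, fell 7.17-fold by 1 of its 3 probe sets, and its highest change was 0.05. CYP27B1, which activates vitamin D, changed by -2.44 and the organic anion transporter SLC22A6 by -2.16, and both fell. The brush border and tubular enzymes DPEP1 (-2.22), DAO (-2.17) and FBP1 (-1.20) fell as well. LRP2, the endocytic receptor megalin, read 7.81, 7.31, 7.75 and 8.55 at 24 h, against 7.74, 8.02, 8.78 and 9.11 at 4 h. Those values overlapped and the change of -0.56 ± 0.39 did not pass. The transcription factor HNF4A (-0.58), ANPEP (-0.65) and SLC5A1 (-0.32) did not pass either. The mean level of the list relative to naive was -2.29, -2.62, -2.73 and -1.39 at 24 h, against -1.19, -1.32, -0.76 and -0.16 at 4 h, a narrow gap between donor 8 and donor 2. Without CO 4 h donor 4 the count was 9. HPD lost its call in 5 of the fits that left out 1 CO array (adjusted p up to 0.123), UGT2B31 in 3 (up to 0.0670) and FBP1 in 6 (up to 0.132).

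Distal nephron genes and injury markers were mixed. Of 11 loop and distal nephron genes, 3 were lower and 1 higher (median -0.64, date-block median 0.37). EGF, made by the distal tubule, read 6.04, 5.04, 4.41 and 7.50 at 24 h, against 8.37, 7.87, 8.46 and 9.27 at 4 h and 9.48 and 9.45 in naive kidneys, a 6.70-fold fall (adjusted p = 0.00167). KNG1 fell 4.87-fold with all 4 of its probe sets called lower, and the sodium channel subunit SCNN1A 2.32-fold. The potassium channel KCNJ1 rose 3.11-fold, a call lost without CO 24 h donor 5 or 8 or CO 4 h donor 1 or 4 (up to 0.0940). KCNJ1 read 7.76 to 9.05 at 24 h, against 5.92 to 7.17 at 4 h, and naive kidneys at 8.465 and 8.73 lay with the 24 h grafts. Of 21 tubular injury markers, 5 were higher and 3 lower (median 0.10). CLU, a secreted chaperone, rose 3.29-fold to 11.01 to 11.6 at 24 h, against 9.26 to 10.1 at 4 h and 8.15 and 8.40 in naive kidneys. CLDN6 rose 4.12-fold, VCAM1 3.63-fold, and KRT19 and VIM by 1.30 and 1.06. CLDN4, a tight junction protein, fell 5.11-fold, with 6.41 to 7.20 at 24 h, against 8.51 to 9.59 at 4 h, and naive kidneys at 6.12 and 6.17. HBEGF fell by 1.29. MMP7, a matrix protease of injured tubules, read 11.4, 10.9, 10.9 and 10.99 at 24 h, against 9.40, 9.97, 8.79 and 8.20 at 4 h and 3.61 and 4.63 in naive kidneys. Its groups did not overlap, but the change of 1.94 ± 0.66 just missed the threshold (adjusted p = 0.0504). The list's mean level lay 1.71 to 2.19 above naive at 24 h and 1.59 to 2.15 above it at 4 h. The 5 higher markers became 2 without CO 4 h donor 4 and 3 without CO 4 h donor 1 or CO 24 h donor 5, 6 or 7. The 3 lower became 1 without CO 4 h donor 1 or 4 or CO 24 h donor 5 or 8. KRT19 lost its call in 6 of the 8 fits, VCAM1 in 5, HBEGF in 4 and VIM in 2 (up to 0.118, 0.0697, 0.0791 and 0.0521), and MMP7 passed without CO 4 h donor 2, in a fit of the compared groups alone, with quantile normalization, array weights or eBayes with trend and robust settings, and without the dimmest probe sets.

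Most cell cycle and DNA replication genes rose. Of 29 measured, 17 were higher and 0 lower, with a median of 1.18. MCM2, a subunit of the replicative helicase, read 6.96, 7.31, 7.07 and 6.20 in the CO 24 h grafts, against 4.09, 4.27, 3.62 and 3.54 in the CO 4 h grafts and 4.16 and 4.30 in naive kidneys. The rise was 8.04-fold (3.01 ± 0.28, adjusted p = 3.89e-05), and the 4 h values lay near the naive ones. RRM2, which makes deoxynucleotides, read 6.05, 5.29, 5.16 and 3.44 at 24 h, against 2.64, 2.78, 1.88 and 1.71 at 4 h. TYMS, of thymidylate synthesis, rose 6.05-fold and MCM3 4.92-fold. For TYMS, the other probe set changed by -0.28 and did not pass. Genes of mitosis rose as well, among them TOP2A (2.22), UBE2C (1.64), CDC20 (1.27) and AURKA (1.06), and the replication clamp PCNA rose by 1.18. CCNB1 (1.49), CENPF (1.04), PLK1 (0.42) and AURKB (0.41) did not pass, nor did CKS2 at -1.08, which passed without CO 4 h donor 2 or CO 24 h donor 5. The mean level of the list relative to naive was 2.04, 1.11, 0.97 and 0.35 at 24 h, against -0.20 to 0.12 at 4 h. Donor 5 was highest and donor 8 lowest, and the groups did not overlap. Without CO 24 h donor 5 the count was 11. TOP2A lost its call in 4, CDC20 in 2, and AURKA and UBE2C in 7 of the 8 fits that left out 1 CO array (adjusted p up to 0.0885, 0.0545, 0.113 and 0.160).

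Of 29 constitutive proteasome genes, 16 were higher and 0 lower (median 0.63). PSMA2 rose 2.11-fold and PSMB6 2.05-fold, with 8.69 to 9.27 at 24 h, against 7.76 to 8.05 at 4 h. Of the 16, 15 had groups that did not overlap, the exception being PSMA4. Most higher calls of any kind were separated in that way (2025 of 2440 probe sets), so this is not particular to the list. Of 58 cytosolic ribosomal protein genes, 12 were higher and 0 lower (20.7%, close to the 17.9% higher among all genes), with a median of 0.25 (date-block median 0.15) and RPL27 at 1.47-fold by the brightest of its 3 probe sets (lowest change -0.335). That count was 23 without CO 24 h donor 8, 19 without CO 4 h donor 2, and 6 and 7 without CO 24 h donors 5 and 6. Of 36 ribosome biogenesis and translation genes, 4 were higher and 2 lower (median 0.04, date-block median -0.05), or 16.7% called against 26.4% among all genes. VARS, a transfer RNA synthetase, rose 2.25-fold and the cap-binding EIF4E fell 2.15-fold. The 4 became 7 without CO 24 h donor 8 and the 2 became 1 without CO 4 h donor 4 or CO 24 h donor 7.

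Of 28 interferon-stimulated genes, 11 were higher and 0 lower (median 1.15, date-block median 0.51), and 17 did not pass. UBD, a ubiquitin-like protein induced by interferon gamma, read 8.19, 10, 8.11 and 7.60 in the CO 24 h grafts, against 4.02, 6.78, 4.60 and 4.33 in the CO 4 h grafts and 4.50 and 5.57 in naive kidneys. Those groups did not overlap. IFI35 rose 3.83-fold, and IFIT1 (1.52), IFI44L (1.65) and EIF2AK2 (1.34) rose. ISG15 (0.88), MX1 (1.32) and GBP1 (2.04) did not pass. The list's mean level relative to naive was 1.19, 2.38, 2.32 and 1.05 at 24 h, against 0.81, 0.77, 0.17 and 0.05 at 4 h. The 11 became 3 without CO 4 h donor 4, 4 without CO 4 h donor 3 or CO 24 h donor 7, and 5 without CO 24 h donor 6, so the count rests on few arrays. PLAC8 lost its call in 6, EIF2AK2 in 5, XAF1 in 4 and IFI44L in 2 of the fits that left out 1 CO array (adjusted p up to 0.113, 0.101, 0.0856 and 0.0550). MX1 passed without CO 4 h donor 1 or CO 24 h donor 5, and GBP1 without CO 4 h donor 2 or CO 24 h donor 8. Of 21 antigen presentation and immunoproteasome genes, 9 were higher and 0 lower (median 1.27, date-block median 0.59), and 12 did not pass. PSMB10, a catalytic subunit of the immunoproteasome, read 7.80, 8.35, 7.59 and 6.52 at 24 h, against 5.17, 6.43, 4.83 and 4.05 at 4 h, a 5.44-fold rise. PSMB8 rose 4.87-fold, the peptide transporter TAP1 4.53-fold and the class II loading gene SLA-DMB 6.22-fold. TAP1 had 1 of 3 probe sets called higher, with a lowest change of -0.15. B2M (-0.11) and CD74 (0.25) did not pass. The level of the list relative to naive was 0.88, 1.80, 1.21 and 0.16 at 24 h, against -0.67 to 0.38 at 4 h, so donor 8 lay within the 4 h range. Without CO 24 h donor 8, 15 members were higher.

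Of 42 cytokine, chemokine and adhesion genes, 8 were higher (19%, near the 17.9% among all genes) and 2 lower (median 0.05, date-block median -0.02). CCL19, which guides dendritic cells and T cells, read 6.47, 7.08, 5.58 and 3.74 at 24 h, against 1.95, 2.79, 2.20 and 1.71 at 4 h, and CCL8, a monocyte chemokine, 6.03, 6.82, 5.95 and 3.94, against 2.27, 2.09, 2.66 and 2.57. Donor 8 was lowest at 24 h for both, yet above every 4 h graft. CCL19 lost its call without CO donors 2 and 6. Among other chemokines, CCL2, CCL3L1 (0.56), CCL4 (0.83), CCL5 (0.84), CXCL2 (-0.31), CXCL8 and CXCL9 (3.45, adjusted p = 0.0689) did not pass. CCL21 rose 5.27-fold, against 4 h grafts that lay below the naive values of 5.13 and 5.04. LTB, a lymphotoxin chain, rose 5.63-fold with groups that overlapped, a call lost without CO 24 h donor 6 or 7 (up to 0.0620). The 8 became 5 without CO 24 h donor 6 or 7. The 2 lower became 0 without CO 4 h donor 1 or 3 or CO 24 h donor 5 or 8, and 1 without CO 4 h donor 2 or CO 24 h donor 6 or 7.

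Several macrophage markers rose. Of 35 granulocyte and macrophage markers, 11 were higher and 0 lower (median 1.23, date-block median 0.54). FCGR2B, an inhibitory Fc receptor, read 5.68, 6.08, 5.87 and 3.85 in the CO 24 h grafts, against 2.61, 3.41, 3.10 and 2.56 in the CO 4 h grafts. The macrophage mannose receptor MRC1 rose 4.04-fold, and GP91-PHOX, a subunit of the phagocyte oxidase, 4.55-fold, a call lost without CO 4 h donor 1 or 4 or CO 24 h donor 6 or 7 (up to 0.0807). S100A8 (-0.13), S100A9 (-0.41) and S100A12 (-0.11) did not pass. Levels of the list relative to naive were 1.28, 2.14, 1.65 and 0.23 at 24 h, against 0.13 to 0.40 at 4 h, so donor 8 fell within the 4 h range. Without CO 24 h donor 8, 19 members were higher. The 11 became 3 without CO 4 h donor 1 or CO 24 h donor 6 or 7, 4 without CO 4 h donor 4 and 6 without CO 4 h donor 3 or CO 24 h donor 5. Of 22 lymphocyte markers, 0 were called in either direction by limma (median 0.76, date-block median 0.04), while 7 had an unadjusted p under 0.05. CD3D, a chain of the T cell receptor complex, read 4.21, 5.28, 4.58 and 3.34 at 24 h, against 2.87, 3.68, 2.83 and 2.81 at 4 h (adjusted p = 0.0511). It passed without CO 24 h donor 8 or CO 4 h donor 2, in a fit of the compared groups alone, with array weights or eBayes with trend and robust settings, and without the dimmest probe sets. In all, 5 markers passed without CO 24 h donor 8.

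**Figure D4:**
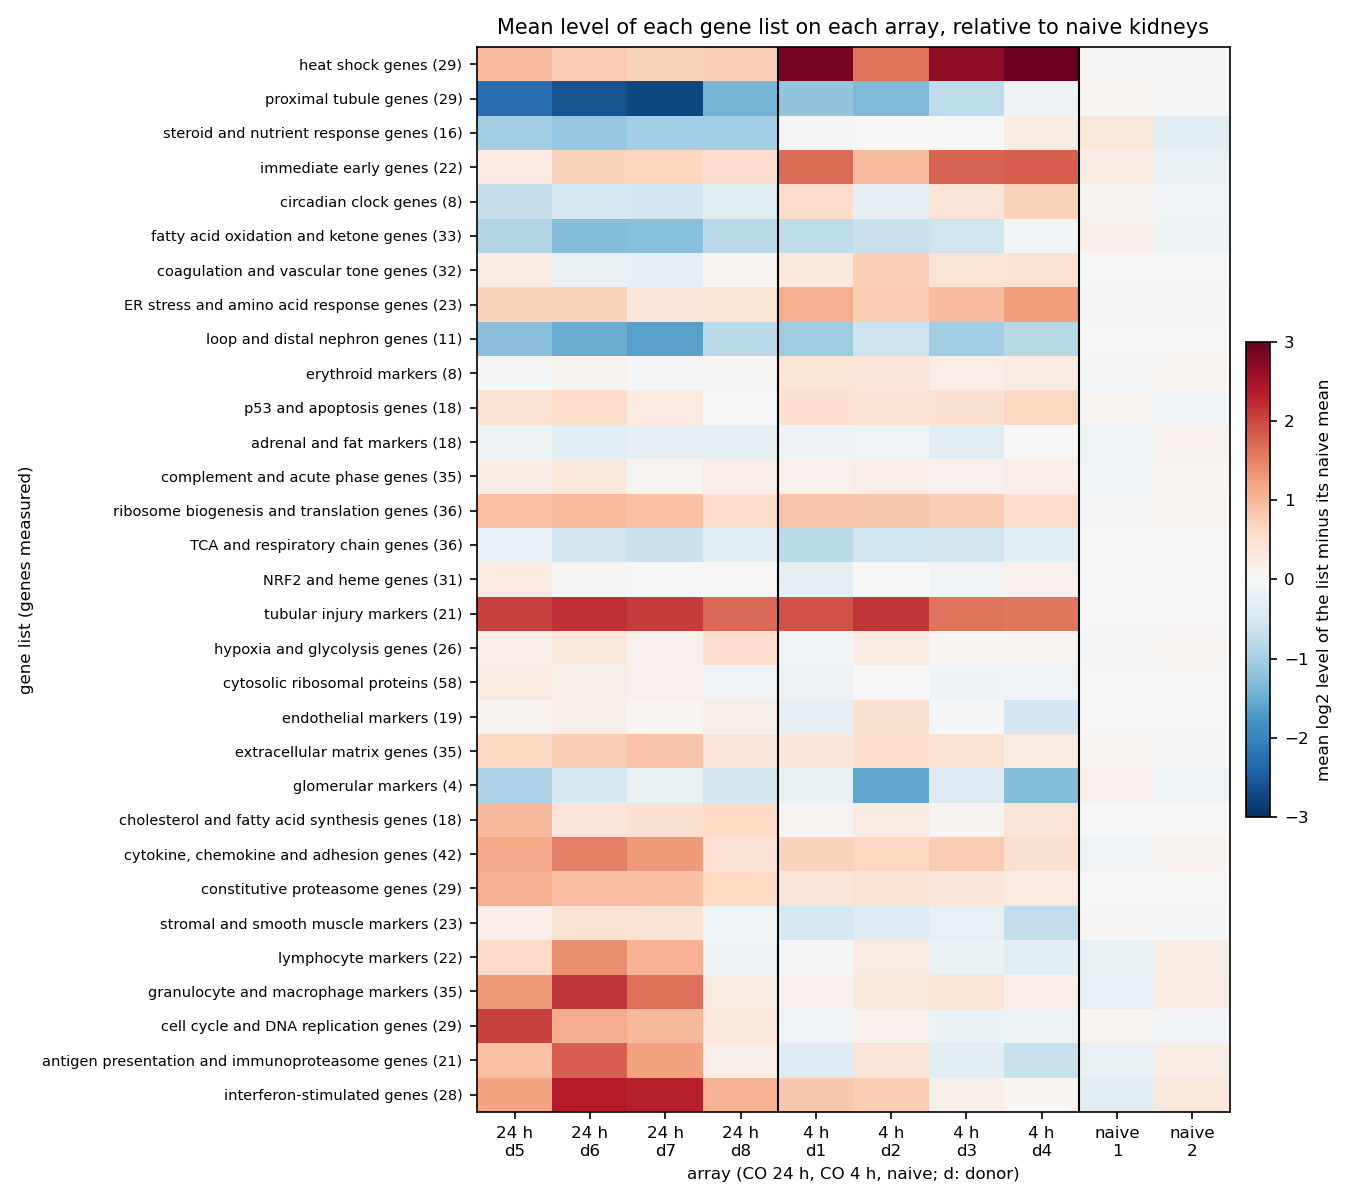
Mean log2 level of each list on each CO 24 h array, CO 4 h array and naive array, minus its mean in the 2 naive kidneys, ordered by the difference between the times. Heat shock genes are highest on the CO 4 h arrays (1.63 to 2.93), and proximal tubule genes lowest on the CO 24 h arrays (-2.73 to -1.39). The CO 24 h array of donor 8 is paler than its group for leukocyte, interferon and cell cycle lists.

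Of 23 stromal and smooth muscle markers, 9 were higher and 0 lower (median 0.68), and 14 did not pass. CDH11, a cadherin of fibroblasts, read 6.71, 6.28, 6.99 and 5.98 at 24 h, against 3.76, 3.75, 4.43 and 3.35 at 4 h and 6.41 and 6.08 in naive kidneys. The 24 h level thus lay with the naive one, after a 6.33-fold rise. ACTA2, smooth muscle actin, rose 3.94-fold to 9.68 to 11.5 at 24 h, against 7.99 to 9.56 at 4 h and 8.06 and 8.68 in naive kidneys. TPM2 rose 3.60-fold, DES by 1.27 and CALD1 by 1.04. TPM2 had 2 of 4 probe sets called higher, with a lowest change of 0.12. TAGLN (0.68), CNN1 (-0.22), MYL9 (-0.20) and COL3A1 (-0.41) did not pass. ACTA2 lost its call without CO 24 h donor 6 or 7 or CO 4 h donor 1 or 4 (up to 0.0554). Of 35 matrix genes, 4 were higher and 2 lower (median 0.44, date-block median -0.28). That was 17.1% called, below the 26.4% among all genes. The inhibitor of metalloproteinases TIMP3 fell 3.25-fold and SPARC, a collagen-binding glycoprotein, rose 2.55-fold, a call lost in 7 of the 8 fits that left out 1 CO array (up to 0.0898). SPARC had another probe set, which changed by -0.09 and did not pass. The 4 higher calls became 0 without CO 4 h donor 1, 3 or 4 or CO 24 h donor 6 or 7, 2 without CO 24 h donor 5 and 1 without CO 24 h donor 8. The 2 lower calls became 1 without any CO array except that of donor 2 at 4 h.

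Of 19 endothelial markers, 3 were higher and 1 lower (median 0.04, date-block median 0.33). The share called was 21.1%, below the 26.4% among all genes. RAMP2, a co-receptor of adrenomedullin, read 6.60, 6.51, 6.66 and 6.07 at 24 h, against 2.99, 6.15, 3.58 and 3.18 at 4 h, so CO 4 h donor 2 overlapped the 24 h grafts. Its 5.60-fold rise lost its call without CO 4 h donor 1 (adjusted p = 0.0537). TMEM100 was below background on all 4 CO 4 h arrays and was at least 1.99-fold higher at 24 h (adjusted p = 0.00944), and PECAM1 rose 1.80-fold, a call lost in 7 of the 8 fits (up to 0.132). Naive kidneys read 3.25 and 3.21 for TMEM100, above the 2.25 to 2.95 at 24 h. The 3 became 1 without CO 4 h donor 1 and 5 without donor 2, and the lower call, AQP1 by its brightest probe set, was lost without any CO array except donor 2 at 4 h and donor 8 at 24 h. AQP1 is also the water channel of the proximal tubule, so in whole tissue its fall cannot be assigned to the endothelium. Of 32 coagulation and vascular tone genes, 6 were lower and 1 higher (median -0.27, date-block median -0.52), or 21.9% called against 26.4% among all genes. Besides F9, thrombomodulin (THBD) fell 4.57-fold, with 4.39 to 5.25 at 24 h, against 6.53 to 7.65 at 4 h and 3.84 and 3.24 in naive kidneys, and ACE fell 2.72-fold. PROC passed only with all CO arrays in (adjusted p = 0.0498, against 0.0516 to 0.132 with one left out). Of 35 complement and acute phase genes, 22.9% were called, against 26.4% of all genes. They had 4 higher and 4 lower (median 0.01, date-block median -0.08). Among them were LBP, which binds bacterial lipopolysaccharide (4.72-fold higher), C1R (3.83-fold higher), and TTR (4.55-fold lower, a call lost in 5 of the 8 fits, up to 0.139). LBP had another probe set, which changed by -0.009 and did not pass. The counts of the complement and acute phase list became 8 higher without CO 24 h donor 8, and 2 lower without CO 4 h donor 4 or CO 24 h donor 6, 7 or 8. Of 4 measured glomerular genes (25% called, median 0.03, date-block median 0.69), TCF21 rose 3.39-fold, with 6.31 to 7.25 at 24 h, against 4.22 to 5.80 at 4 h and 7.40 and 7.34 in naive kidneys. Of 8 erythroid markers (12.5% called, median -0.23, date-block median -0.44), BPGM fell 1.96-fold and no other passed. Its call was lost without CO 4 h donor 1 or 3 or CO 24 h donor 6 or 7 (up to 0.0706). Of 18 adrenal and fat markers (11.1% called), SCARB1 rose 1.88-fold (lost without CO donors 2 and 6) and LPL fell 1.69-fold, a call lost in 5 of the 8 fits (up to 0.101). The mean level of the adrenal and fat list was 3.19 to 3.37 at 24 h and 3.19 to 3.51 at 4 h, with 2 of its 18 genes below background on all 8 arrays.

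The same interval was measured in untreated grafts of the same 8 donors. There 2332 probe sets differed between 24 h and 4 h (9.72%), 1235 higher (5.15%) and 1097 lower (4.57%). Before adjustment 5560 (23.2%) lay under a p of 0.05. By the brightest probe set of each gene 1100 of 6765 passed (16.3%), 650 higher (9.61%) and 450 lower (6.65%), with 34.1% under 0.05 before adjustment. Of the calls in CO-treated grafts, 1727 were also called in untreated grafts, all in the same direction. That was 40.9% of the CO calls and 74.1% of the untreated calls. The change over time had the same sign in untreated grafts for 4185 of the 4226 CO calls. Over all probe sets, called or not, the changes with and without CO had a Pearson correlation of 0.818. At each time 3 of the 4 untreated arrays carried a date with no array of the other time. Donors were shared too, so differences of donor or date cannot be told apart from time in these counts. The median size of change of the CO calls was 0.90 in CO-treated and 0.64 in untreated grafts. Without the untreated 4 h array of donor 1, untreated calls numbered 2928 (12.2%), the shared calls 2200 (52.1% of the CO calls and 75.1% of the untreated ones), and the median size 0.722. The test of the difference itself, the change with CO minus the change without, called 0 of 23999 probe sets (0%) with limma, with a smallest adjusted p of 0.996. At an unadjusted p under 0.05 there were 612 (2.55%). Without the untreated 4 h array of donor 1 these were 0 and 400. A larger number of calls with CO is not itself a tested difference.

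The lists are set side by side with and without CO, with no test of a list. Heat shock genes had 18 lower with CO and 6 lower without, and medians of -1.15 and -0.75. Without the untreated 4 h array of donor 1 the untreated values were 24 lower and a median of -1.17. Proximal tubule genes had 15 lower with CO and 23 without, and medians of -1.20 and -2.45, or 19 and -2.33 without that array. Fatty acid oxidation genes had 10 and 17 lower, or 14 without that array. Granulocyte and macrophage markers had 11 higher and 0 lower with CO, and 1 higher and 1 lower without, with medians of 1.23 and 0.45. Without that array the untreated values were 1 higher, 2 lower and a median of 0.30. The mean level of these markers relative to naive was 1.32 ± 0.81 with CO and 1.65 ± 0.63 without at 24 h, and 0.26 ± 0.12 with CO and 1.20 ± 0.53 without at 4 h (SD, n = 4). Stromal and smooth muscle markers had 9 higher with CO and 0 without, with medians of 0.68 and 0.26, or 3 higher, 2 lower and a median of 0.11 without that array. Cell cycle genes had 17 and 11 higher, and constitutive proteasome genes 16 and 15.

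**Figure D5:**
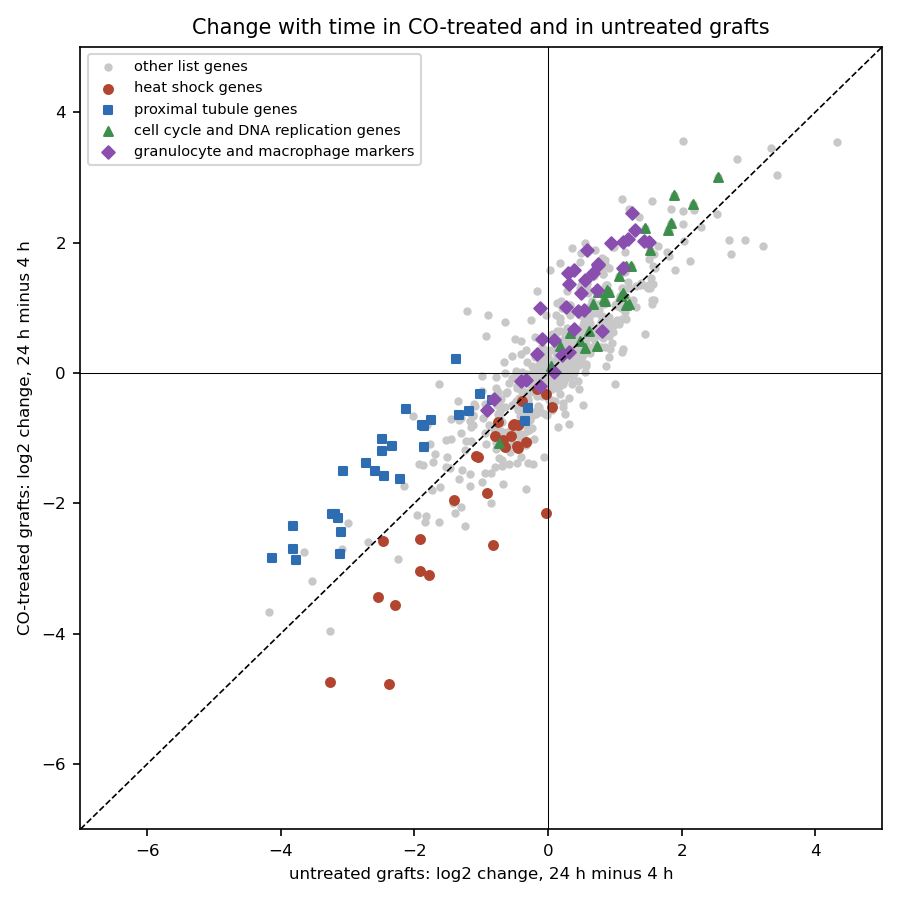
Change over time (log2, 24 h minus 4 h) of every list gene in CO-treated grafts (vertical, n = 4 against 4) and in untreated grafts (horizontal, n = 4 against 4), the dashed line marking equal change. Of 29 proximal tubule genes (blue squares) 27 lie above the line, and of 29 heat shock genes (red circles) 28 lie below it. Without the untreated 4 h array of donor 1 these counts are 27 and 14. No gene passed the test of the difference.

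Genes with the smallest p for that difference are given as values, since none passed. ME1, the cytosolic malic enzyme that supplies NADPH, read 1.31, 1.15, 1.38 and 1.33 in the CO 24 h grafts, against 2.34, 3.16, 2.71 and 2.23 in the CO 4 h grafts. All 4 CO 24 h values were below background, so the fall with CO was at least 2.00-fold (adjusted p = 0.000745). Untreated means of 1.48 at 24 h and 1.63 at 4 h lay near the background of 1.607, so no size is given for the difference (unadjusted p = 0.00100, adjusted p = 0.996). The brightest probe set of ME1 changed by -1.02 with CO and did not pass (adjusted p = 0.0561). SLC17A1, a phosphate and urate transporter of the proximal tubule, changed by -0.95 with CO and -2.73 without, a difference of 1.78 ± 0.51. TP53I3 changed by -0.05 with CO and -0.99 without. ACSS2, which makes acetyl-CoA from acetate, rose 1.97-fold with CO and changed by 0.17 without. MCRIP2 changed by 0.13 and -0.60. For LRP2 the changes were -0.56 with CO and -2.13 without.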

How the data were processed

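RNA of 18 pig kidneys was measured on Affymetrix pig arrays, 1 array each. The deposited values are log2 intensities made by the authors with RMA, per the submitters' processing notes; its version is not given in the sources used here. RMA corrects background, quantile-normalizes and summarises probes, so array medians were alike (3.753 to 3.943), and overall shifts in RNA content cannot be seen. The file holds 24123 probe sets. After removal of 124 controls, tests ran on 23999. A symbol was given to 10069, several to 198 and none to 13732. Background was 1.607, the 95th percentile of 17 tag controls. limma 3.58.1 in R 4.3.3 fitted all 18 arrays in 5 groups without a block (lmFit, eBayes, two-sided, Benjamini-Hochberg over all probe sets, threshold 0.05). It was tested on simulated normal data with few changed probe sets and no date effect. There it found 18% of log2 changes of 0.5, 70% of 1 and 92% of 2 (50 each), with 4 false calls. Many changes under 1 would thus be missed. The labels give donor numbers and no more of the animals. File-name numbers of the naive arrays recur in donor 4's. The number of arrays limits precision.

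The members and the 31 gene lists were chosen with earlier results of these data known. Named were the 14 largest changes each way (by the probe set of largest change), a fixed set of genes, the 4 members per list with the largest called change (brightest probe set), and the 5 smallest p of the difference. Other list members in the text were chosen after their values were seen. Fold changes come from differences of log2 means. CO 24 h and CO 4 h grafts share no donor. Between the kidneys of a donor, correlations of deviations from group means were -0.201 to 0.569 at 4 h and 0.16 to 0.39 at 24 h. Alternatives were array weights, centring, quantile normalization, date and donor blocks, filters and leaving out arrays.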

Additional observations from a re-analysis of the deposited data

Results flagged for a closer look

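In 14 of 288 groups of 4 arrays examined, 1 array lay far from the other 3, and chance gives about 1 in 20. Of the 14, 8 came from the CO 4 h array of donor 2. On it HSPA6 read 8.12 (others 10.7 to 11.04), DNAJB1 9.22 (11.4 to 11.8), BAG3 9.81 (11.5 to 11.8) and JUN 9.02 (10.8 to 11.1). HSP70.2 read 11.3 by 1 probe set (others 12.6 to 12.8) and 10.9 by another. GSTA4 at 4.33 (others 3.20 to 3.39) and CD3D at 3.68 (2.81 to 2.87) were high there. On the CO 4 h array of donor 4, FAM26F was low at 2.56 (others 3.24 to 3.28), while PCK2 at 8.49 (7.20 to 7.41) and ACAA2 at 8.37 (7.41 to 7.55) were high. PCLAF was low on that of donor 3 at 2.26 (2.69 to 2.77). On the CO 24 h array of donor 8, VCAM1 was low at 8.37 (others 9.21 to 9.36) and PSMB2 at 8.98 (9.49 to 9.58).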

How the results depend on the processing

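The count of 4226 calls, with 2440 higher and 1786 lower, moved to 6934 with array weights (3793 higher, 3141 lower), and to 1744 with a log2 change of at least 1 (937 and 807). It was 1799 at an adjusted p under 0.01. With the date of the array file names as a fixed block it was 0, with 0 higher and 0 lower. In that fit 2177 probe sets had an unadjusted p under 0.05, the smallest adjusted p was 0.0991, the median standard error of the 4226 was 0.435 against 0.213, and 4184 of them kept their sign. All 130 named genes that were called lost the call there, and 0 of them reversed. Leaving out 1 array gave 2720 to 4860 calls, 1598 to 2759 higher and 1098 to 2132 lower. The compared groups share no donor, so no paired analysis of them exists. With donor as a random replicate block over all arrays the count was 4260 (correlation 0.128), and with date as a random block 4322. The remaining alternatives gave 3847 to 4335 calls. Without CO donors 2 and 6 there were 3953. The difference between the time changes with and without CO had 0 calls in every alternative run. Genes that did not pass changed sign in some. With 1 array left out, the change of CCL2 ranged from -0.084 (without CO 4 h donor 2) to 0.846 (without CO 24 h donor 8), and it was -0.0069 without CO 24 h donor 6 and -0.45 without CO donors 2 and 6. CXCL8 ranged from -0.61 (without CO 4 h donor 2) to 0.10 (without CO 24 h donor 8). ICAM1 ranged from -0.24 to 0.22 (without CO 24 h donors 6 and 8), and was 0.018 with quantile normalization and 0.0013 with array weights. IL6 ranged from -0.34 to 0.028 (without CO 4 h donors 4 and 1), and was 0.044 without CO donors 2 and 6. With the fixed date block IL6 was 0.48, the brightest probe set of VEGFA 0.22 and CD3D -0.17. The cause of these moves was not tested.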
